A study of Arabidopsis thaliana with 30 samples.

Results

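The transcripts described here are those of the plastid genome of Arabidopsis thaliana, chosen as every row of the expression table whose locus identifier begins with ATCG. The rule found 67 of 30237 rows, 1 for each of 67 protein genes, and it used no measured value. By function they were 11 genes of photosystem II, 5 of photosystem I, 5 of the cytochrome b6f complex, 5 of ATP synthase, 10 of the NADH dehydrogenase-like complex (NDH), rbcL, 17 of the plastid ribosome (10 of the small and 7 of the large subunit) and 4 of the plastid RNA polymerase. Another 4 encode assembly factors and 5 have other tasks. No row belonged to a plastid tRNA or rRNA, and 12 of 79 protein genes, among them atpH, ndhB, rpl2 and ycf2, are not analysed here.

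The samples were leaf 3 of Col-0 seedlings grown in vitro on MS medium, hybridised to AGRONOMICS1 tiling arrays, with 10 groups and 3 biological repeats in each. A time course of 18 arrays covered untreated leaves on each day from 8 to 13, counted from the end of stratification. A second experiment of 12 arrays compared leaves treated with the herbicide norflurazon (NF) at day 8 with leaves of untreated seedlings (MS), 24 h later at day 9 and 48 h later at day 10. Norflurazon blocks carotenoid synthesis at phytoene desaturase and thereby exposes chloroplasts to damage by light.

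The plastid genome is a remnant of a cyanobacterial one and encodes the core of the photosynthetic apparatus together with part of the machinery that expresses it. The reaction centre proteins, the large subunit of Rubisco and the catalytic subunits of ATP synthase are made in the plastid, while the peripheral subunits are imported from the cytosol. A bacterial-type polymerase, whose core is encoded by rpoA, rpoB, rpoC1 and rpoC2 and whose sigma factors are nuclear, transcribes the photosynthesis genes of green leaves, and a phage-type polymerase encoded in the nucleus transcribes housekeeping genes including the rpoB operon. Many plastid genes lie in operons, so neighbours share primary transcripts. Plastid mRNAs carry no long stable poly(A) tail, and how the RNA of these arrays was primed is not given in the sources used here.

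Values are the log2 levels that the authors deposited. A level depends on the probes of its row, so levels are compared between samples and not between genes. The array median did not exceed 3.63 for the time course or 2.88 for the other experiment. Within groups, Pearson's r between arrays over all rows was 0.976 to 0.995. The leaf markers RBCS1A, PSBO1 and LHCB4.1 stood at 10.6 or more on every array, and CA1, the fourth leaf marker, varied between 4.5 and 12.2 over time-course arrays and between 7.51 and 10.9 over the others, whereas the root hair, flower and seed storage markers did not exceed 4.16. A change is a log2 difference of means of 3 arrays ± its standard error from limma, and a gene is called when its p, adjusted over all 30237 rows, is under 0.05. The p-values judge a difference against the spread between the repeats, estimated over all groups of an experiment. The tissue is a whole leaf, so fewer cells of a type, fewer plastids per cell and less RNA per plastid cannot be told apart.

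Plastid rows of 1 array tended to be high or low together, more than nuclear rows did. The median SD between the 3 arrays of a group was 0.298 for plastid and 0.149 for nuclear rows of the time course, against 0.301 and 0.110 for the norflurazon arrays. In 6 of 10 groups a single array was the highest of 3 for more than 50 of the 67 members, up to 63 of them for day 13 replicate 1. Day 8 replicate 3 stood apart from the other 2 arrays of its day: 26 of 67 plastid rows were more than 1 log2 above their mean, 7 of them by more than 3, against 4 of 33 mitochondrial rows and 0.524% of nuclear rows. It was mainly dim rows that were raised. The median excess was 2.04 for the 21 members under 5 on the other 2 arrays, 0.64 for 19 members between 5 and 7, and 0.17 for 27 brighter members. For 18 members this array was higher than every array of days 9 to 13, for example ndhG with 3.95, 6.05 and 9.81 on the 3 arrays of day 8 and petD with 2.87, 3.22 and 6.48. Many results on day 8 are therefore given with and without it, an alternative chosen after seeing the data. A value given once is from all arrays and can also move. From day 8 to day 13, ndhK changed by 2.78 with this array and 3.40 without it, and atpB by 1.16 and 1.10. Because the array was picked for its high plastid values, leaving it out tends to raise changes counted from day 8.

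**Figure D1:**
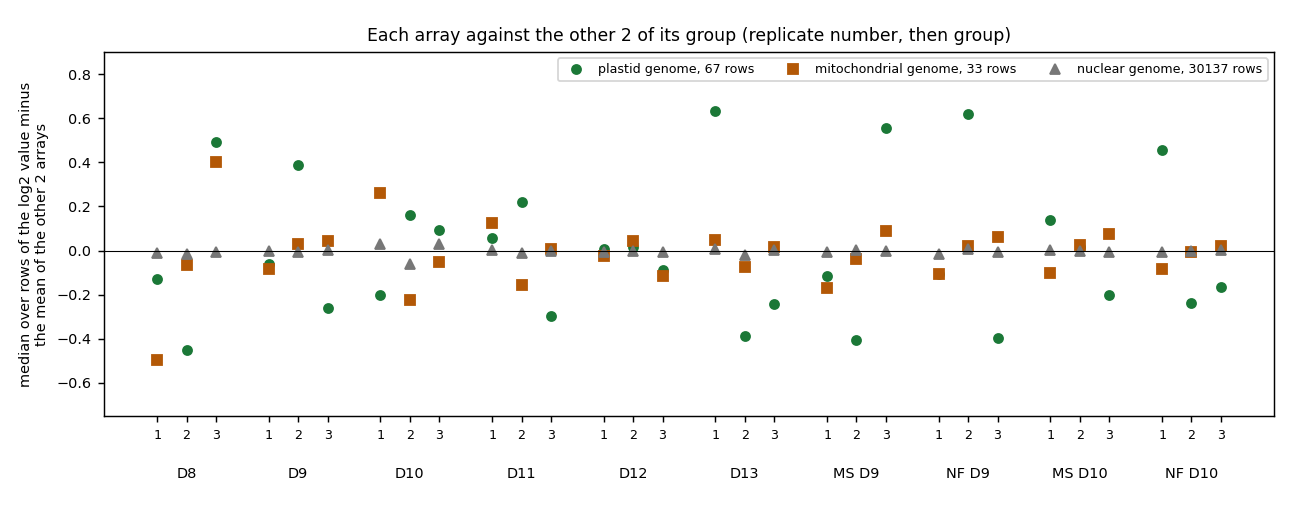
The median, over rows of the plastid (green), mitochondrial (brown) and nuclear genome (grey), of each array's log2 value minus the mean of the other 2 arrays of its group, for the 10 groups of 3. Nuclear medians stay near 0 on every array, and the plastid median is most raised on day 13 replicate 1, NF day 9 replicate 2, MS day 9 replicate 3 and day 8 replicate 3.

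Between days 8 and 13, 16 of the 67 plastid transcripts rose and 3 fell, and the rises were mostly of NDH and photosystem genes. The largest were ndhK, ndhJ, ndhA and psbA, at 6.87-fold, 5.64-fold, 5.16-fold and 4.40-fold. The falls were of psbI, psbK and accD. Of all rows 33.7% were called, 13.9% higher and 19.8% lower, so the share of plastid transcripts called, 28.4%, was near the background, with 23.9% higher and 4.48% lower. The median change was 0.19 over the members and 0.02 over all rows, or 0.47 and 0.04 without day 8 replicate 3. Of the 33 mitochondrial rows 0 were higher and 5 lower.

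Without day 8 replicate 3, 24 members were higher and 1 lower, with 12.6% of all rows higher and 19.1% lower, and 17 calls were shared with the fit on all arrays. The genes added were psaA, psaC, psbB, psbD, ndhE, ndhF, ycf3 and psbN, all higher, and psbK and accD were no longer called. Other arrays also moved the counts. Leaving out day 8 replicate 1 gave 10 lower calls. Leaving out day 13 replicate 1 gave 11 higher and 7 lower calls, and day 13 replicate 2 gave 1 lower call. Calls of psbA, psbC, psbE, psbI, psaB, atpB, rbcL, ndhA, ndhC, ndhI, ndhJ and ndhK survived the removal of each of the 6 arrays in turn. A moderated F test over the 6 days called 19 members, against 32.4% of all rows.

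**Figure D2:**
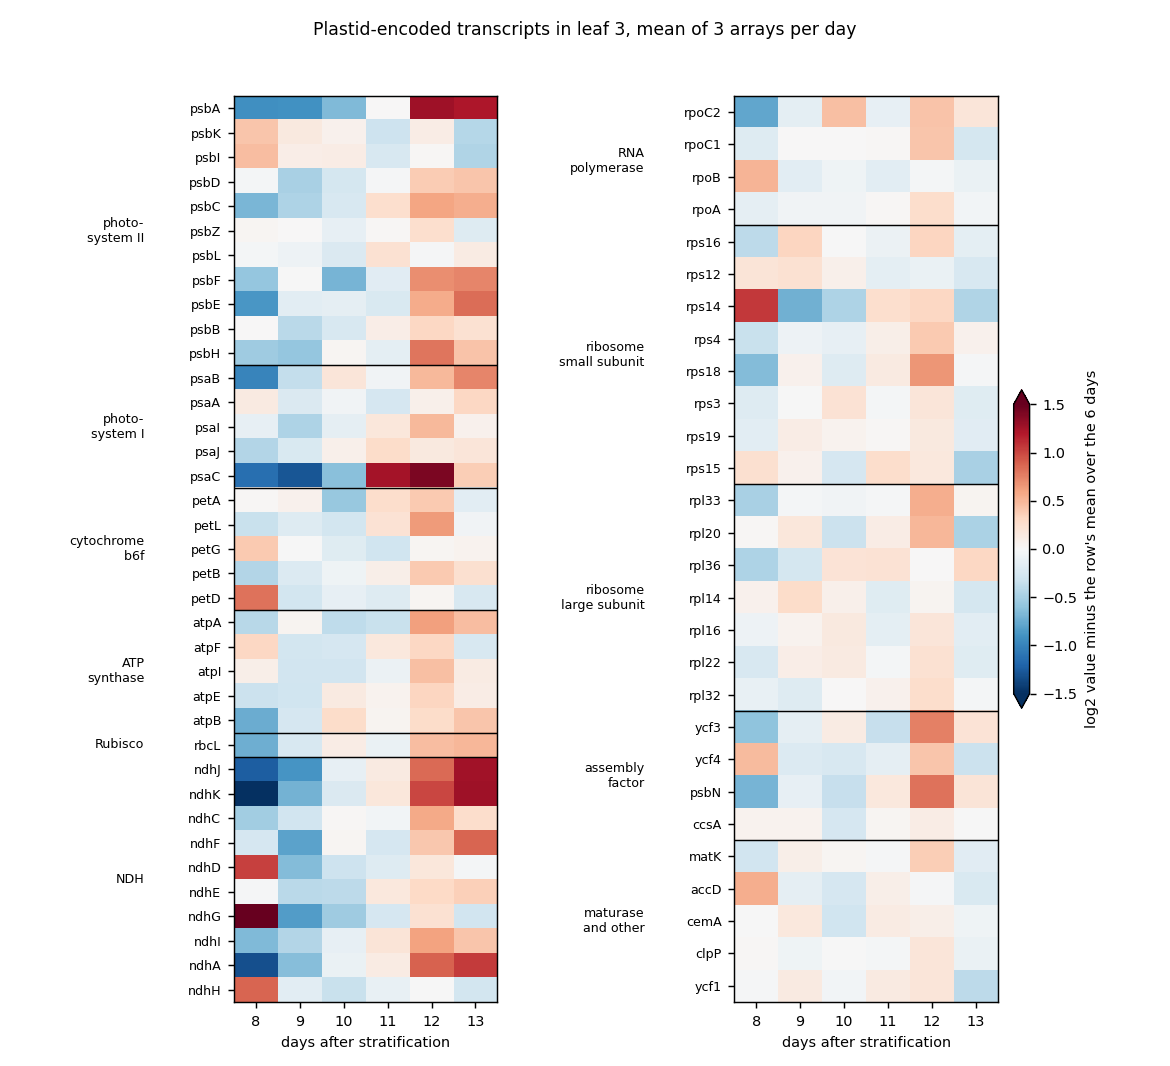
Day means (3 arrays each) of 65 plastid-encoded transcripts from day 8 to day 13, as log2 value minus the mean of the row over the 6 days, grouped by function. The colour scale ends at -1.5 and 1.5. ndhK turns from blue to red, going from 4.38 at day 8 to 7.16 at day 13, psbI turns from red to blue, from 10.20 to 9.28, and rpoA differs by 0.10 between these days.

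Photosystem II splits water and feeds electrons into the chain, and of its 11 genes 5 rose and 2 fell. The median change of the group was 0.45. Without day 8 replicate 3 it was 1.10, with 7 genes higher and 1 lower. psbA, which encodes the reaction centre protein D1, read 4.20, 3.63 and 5.42 on the arrays of day 8 and 7.15, 6.67 and 5.83 on those of day 13. All 3 arrays of day 13 lay above those of day 8, and the change was 2.14 ± 0.40 (adjusted p = 0.000390). Its day means stayed at 4.42, 4.43 and 4.67 to day 10, then went through 5.34 to 6.61 at day 12 and 6.55 at day 13.

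psbE and psbF encode the 2 chains of cytochrome b559, a haem protein beside the reaction centre. psbE went from 7.75, 7.42 and 8.04 to 9.65, 9.39 and 9.28, a change of 1.70 ± 0.17 (adjusted p = 7.13e-07) and the lowest adjusted p of the 67. psbF changed by 1.31 ± 0.44 (adjusted p = 0.0288), with arrays that overlapped between the days, and lost its call without any of 4 arrays, reaching 0.145 without day 13 replicate 1. psbL, of the same operon, gave 0.15 ± 0.29, and -0.05 ± 0.31 without day 8 replicate 3.

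psbC encodes CP43, an inner antenna protein, and read 6.23, 5.61 and 6.35 on day 8 and 7.73, 7.18 and 6.96 on day 13. The groups did not overlap, and the change was 1.23 ± 0.22 (adjusted p = 0.000296). psbH, a small phosphorylated subunit, rose by 0.96 ± 0.29 (adjusted p = 0.0169), but not without day 8 replicate 2 or day 13 replicate 1 (at most 0.0833), nor with all 30 arrays in 1 fit (0.0919). psbD and psbB, which encode the reaction centre protein D2 and the antenna protein CP47, gave 0.45 ± 0.41 and 0.22 ± 0.35 with all arrays. Without day 8 replicate 3, whose values for them were 6.02 and 5.69 against 3.72 to 3.90 on the other 2 arrays, they rose by 1.19 ± 0.20 and 0.85 ± 0.18.

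The small subunits psbK and psbI lie side by side in 1 operon, and both fell. psbI read 10.11, 10.11 and 10.36 on day 8 and 9.29, 8.99 and 9.55 on day 13, a change of -0.92 ± 0.21 (adjusted p = 0.00247). All arrays of day 13 lay below those of day 8. psbK gave -0.84 ± 0.29 (adjusted p = 0.0330) and lost its call without any array of day 8 or without day 13 replicate 2 (at most 0.173).

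**Figure D3:**
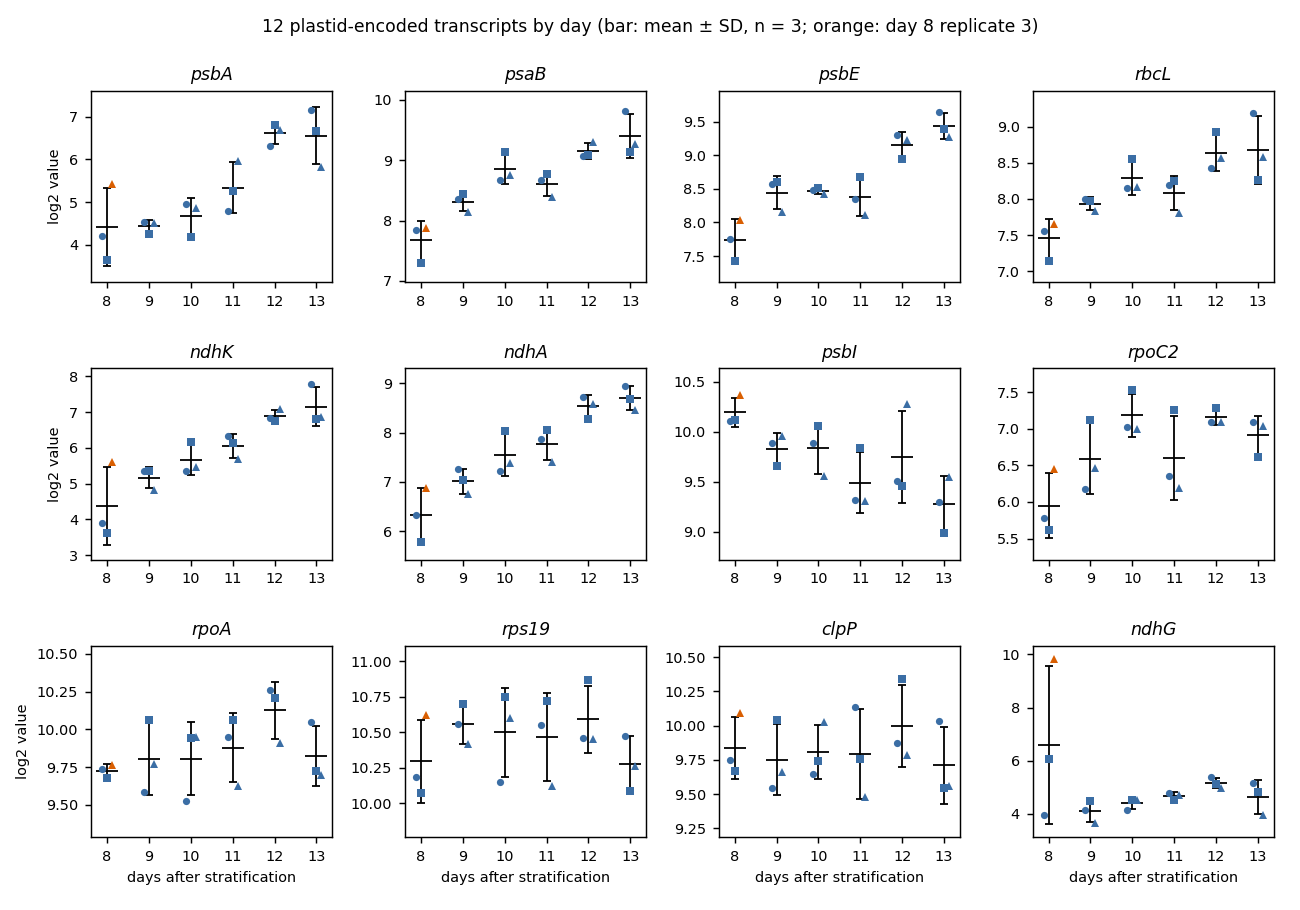
Log2 value on each array (points; circles, squares and triangles for replicates 1, 2 and 3) by days after stratification for 12 plastid-encoded transcripts, with the mean ± SD of 3 arrays as bars and day 8 replicate 3 in orange. The top row and ndhK and ndhA climb, psbI declines, rpoA, rps19 and clpP show no called change, and ndhG at day 8 spans 3.95 to 9.81. Vertical scales differ between panels.

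Photosystem I passes the electrons on to ferredoxin, and 1 of its 5 genes rose with all arrays, or 3 without day 8 replicate 3. psaB, which encodes one of the paired reaction centre proteins, read 7.85, 7.30 and 7.88 on day 8 and 9.82, 9.13 and 9.26 on day 13. The days were well separated, with a change of 1.73 ± 0.19 (adjusted p = 1.52e-06). psaA, which encodes its partner and precedes it in the operon, was dimmer, at 3.26, 3.35 and 4.80 on day 8 and 4.28, 3.61 and 4.04 on day 13. Its change was 0.17 ± 0.29 (adjusted p = 0.722), and 0.67 ± 0.18 (adjusted p = 0.0103) without day 8 replicate 3.

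psaC, the iron-sulfur subunit that hands electrons to ferredoxin, varied more between arrays than most members, with 3.62, 4.84 and 7.08 on day 8 and 4.41, 7.13 and 3.57 on day 9. It reached 7.51, 7.25 and 7.94 on day 11 and 8.15, 8.00 and 7.02 on day 12. The change from day 8 to day 13 was 1.51 ± 0.89 (adjusted p = 0.225), or 2.46 ± 0.87 (adjusted p = 0.0411) without day 8 replicate 3. The small subunits psaI and psaJ gave 0.19 ± 0.23 and 0.62 ± 0.23 (adjusted p = 0.0519 for psaJ).

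The cytochrome b6f complex links the photosystems, and 1 of its 5 genes rose. petB, which encodes cytochrome b6, read 9.35, 9.38 and 9.28 on day 8 and 10.27, 10.06 and 9.74 on day 13, a change of 0.68 ± 0.20 (adjusted p = 0.0136) that was not called without day 13 replicate 1 (0.0704). petA, which encodes cytochrome f, gave -0.17 ± 0.24 (adjusted p = 0.666). petG, a small subunit, had the lowest mean level of all members in the time course, 3.38, and gave -0.34 ± 0.42, or 0.20 ± 0.37 without day 8 replicate 3.

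Of the 5 genes of ATP synthase, which makes ATP from the proton gradient, 1 rose. atpB, which encodes the catalytic β subunit, read 9.71, 9.06 and 9.21 on day 8 and 10.72, 10.32 and 10.43 on day 13, a change of 1.16 ± 0.19 (adjusted p = 0.000133). atpA, which encodes the α subunit, gave 0.88 ± 0.34 (adjusted p = 0.0580). Median change over the complex was 0.43, or 0.70 without day 8 replicate 3. rbcL, the gene for the large subunit of the carbon-fixing enzyme Rubisco, went from 7.55, 7.15 and 7.66 to 9.19, 8.27 and 8.58. This rise of 1.23 ± 0.21 (adjusted p = 0.000160) was 2.34-fold and held with any 1 array left out.

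NDH carries electrons from ferredoxin back into the chain in cyclic flow around photosystem I, and of its 10 genes 5 rose and 0 fell. The median was 0.93, and 0.99 without day 8 replicate 3. The operon ndhC-ndhK-ndhJ rose as a whole. ndhK read 3.91, 3.61 and 5.61 on day 8 and 7.80, 6.80 and 6.88 on day 13, a change of 2.78 ± 0.40 (adjusted p = 2.81e-05). Its day means of 4.38, 5.17, 5.67, 6.05, 6.89 and 7.16 were each higher than the one before. ndhJ gave 2.49 ± 0.49 (adjusted p = 0.000538), and ndhC, which was bright from the start, 0.78 ± 0.18 (adjusted p = 0.00270).

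In the small single-copy region, ndhA and ndhI are neighbours in an operon that also holds ndhH, ndhG, ndhE, psaC and ndhD. ndhA, a membrane subunit, went from 6.33, 5.77 and 6.88 to 8.95, 8.69 and 8.46, a change of 2.37 ± 0.26 (adjusted p = 1.69e-06). ndhI, an iron-sulfur subunit, changed by 1.07 ± 0.20 (adjusted p = 0.000304). Other members of the operon gave values that turned on day 8 replicate 3. ndhG, ndhD and ndhH gave -1.96 ± 0.88, -1.06 ± 0.71 and -1.15 ± 0.59, none called, and -0.36 ± 0.45, 0.22 ± 0.37 and 0.00 ± 0.18 without that array.

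ndhF, which encodes another membrane subunit, read 4.19, 5.06 and 7.72 on day 8 and 7.24, 6.44 and 6.65 on day 13. It gave 1.12 ± 0.56 (adjusted p = 0.143), and 2.15 ± 0.25 (adjusted p = 6.95e-06) without day 8 replicate 3, when 7 of 10 NDH genes were higher. The count of NDH genes called higher was 5 without any of the other arrays of days 8 and 13, and 3 were called lower without day 8 replicate 1.

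Few genes of the expression machinery were called in this interval. Of the 4 genes of the plastid RNA polymerase, 1 rose: rpoC2, which encodes the β'' subunit, read 5.78, 5.62 and 6.45 on day 8 and 7.09, 6.61 and 7.04 on day 13, a change of 0.96 ± 0.28 (adjusted p = 0.0132). The groups did not overlap, but the call was lost without day 8 replicate 1 or 2 or day 13 replicate 1 (at most 0.0668). The genes of the β' and α subunits, rpoC1 and rpoA, gave -0.07 ± 0.24 and 0.10 ± 0.16. rpoB, for the β subunit, stood below the array median on most arrays and gave -0.61 ± 0.33 (adjusted p = 0.186), or 0.02 ± 0.14 without day 8 replicate 3.

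Of the 17 ribosomal protein genes 1 rose and 0 fell, with a median of 0.07, or 0.11 without day 8 replicate 3. rps4 gave 0.40 ± 0.22 (adjusted p = 0.195). The member with the highest mean level in both experiments, rpl32, read 11.44, 11.25 and 11.19 on day 8 and 11.95, 11.18 and 11.00 on day 13, a difference of 0.08 ± 0.24. rps14, which shares an operon with psaA and psaB, read 4.02, 5.19 and 9.08 on day 8 and gave -1.52 ± 0.81 with all arrays and -0.03 ± 0.40 without the third.

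The assembly factors ycf3 and ycf4 of photosystem I, psbN of photosystem II and ccsA of c-type cytochromes were not called. ycf3 and psbN gave 0.82 ± 0.45 and 0.88 ± 0.50, and rose by 1.37 ± 0.41 and 1.47 ± 0.47 without day 8 replicate 3. Of the other 5 genes, accD, for a subunit of the acetyl-CoA carboxylase of fatty acid synthesis, changed by -0.77 ± 0.29 (adjusted p = 0.0488). Its arrays overlapped between the days, and without day 8 replicate 3 the value was -0.32 ± 0.21 (adjusted p = 0.288). The protease gene clpP, the intron maturase gene matK and ycf1, whose product has been linked to protein import, gave -0.12 ± 0.20, 0.11 ± 0.23 and -0.37 ± 0.19.

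No 1-day interval held a called plastid transcript by limma. The share of all rows called was 1.28% from day 8 to 9 (0.460% higher, 0.817% lower), 7.38% from day 9 to 10 (2.37% and 5.01%), 0% from day 10 to 11, 0.695% from day 11 to 12 (0.364% and 0.331%) and 1.54% from day 12 to 13 (0.681% and 0.857%). At an unadjusted p under 0.05, 9 members were higher and 4 lower in the interval from day 8 to 9, 2 and 1 from day 9 to 10, and 2 and 0 from day 10 to 11. From day 11 to 12 there were 12 higher and 0 lower, and from day 12 to 13 there were 0 higher and 8 lower. The share of all rows at this unadjusted threshold is not given here, so these counts are descriptions without a background. ndhK was called from day 8 to 9 without day 8 replicate 3. A single member was also called without day 9 replicate 3, day 10 replicate 1, day 12 replicate 2 or day 13 replicate 1 in an interval that ends on that day, and 2 from day 8 to 9 without day 8 replicate 1.

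The interval from day 11 to 12 had the most members moving one way. Of the 67 members 61 were higher on day 12, with a median of 0.33 against 0.00 over all rows. The largest differences were psbA at 1.27 ± 0.40, ycf3 at 1.09 ± 0.45, atpA at 0.95 ± 0.34 and psbH at 0.94 ± 0.29, and psbE at 0.78 ± 0.17 came nearest to a call (adjusted p = 0.0520). From day 12 to day 13 the median was -0.27 and 17 members were higher. The largest negative differences with an unadjusted p under 0.05 were rpl20 at -0.97 ± 0.41, rps18 at -0.69 ± 0.25 and rpoC1 at -0.68 ± 0.24, whereas the median of the 16 photosystem genes was -0.05. Plastid rows of day 13 replicate 1 stood a median of 0.63 above the other 2 arrays of its day. The medians are not given without it.

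The day of the highest mean was day 12 for 33 members and day 13 for 14, together 70.1% of members against 42.0% of nuclear and 15.2% of mitochondrial rows. NDH genes had their highest mean at day 13 in 5 of 10 cases, and ribosomal protein genes at day 12 in 10 of 17. Without day 8 replicate 3, day 12 or 13 was the highest for 83.6% of members, including all 10 NDH genes. Day 8 had the lowest mean for 43.3% of members and 23.1% of nuclear rows, or 65.7% and 27.4% without that array. These shares are descriptions with no test, and members of 1 operon or 1 array are not independent. Day 8 replicate 3 was left out for its high plastid values, so its removal by itself moves highest means to later days. The shares are not given without day 13 replicate 1, the highest array of its day for 63 members.

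Nuclear genes for subunits of the same complexes gave a fuller count between days 8 and 13. Higher calls, made for 13.9% of all rows, went to 10 of 10 genes of photosystem II and 12 of 12 of photosystem I. ATP synthase had 3 of 3 and NDH 13 of 13, and the nuclear genes of cytochrome b6f are not given here. The NDH genes had a median of 2.89, led by PnsL2 (AT1G14150) at 4.03 ± 0.23 and PnsB1 (AT1G15980) at 3.49 ± 0.26. Of the imported plastid ribosomal proteins 26 of 29 were higher, with a median of 0.56, beside 1 of 17 for those made in the plastid. Among 20 genes of plastid transcription 7 were higher and 3 lower, with the sigma factor gene SIGA (AT1G64860) at 1.44 ± 0.13 and the polymerase-associated superoxide dismutase gene FSD3 (AT5G23310) at -0.69 ± 0.19. The nuclear and plastid counts were not tested against each other, and plastid rows had the larger spread between arrays.

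At day 9, 24 h after treatment, norflurazon-treated leaves had lower levels of 3 plastid transcripts and a higher level of 1. Among the lower ones were rpoC2 and rpoA, both of the RNA polymerase. The higher one was psbK. The 4 calls are 5.97% of the members, near the 7.43% of all rows called (3.60% higher, 3.83% lower). The median was -0.17 over the members and -0.01 over all rows, and 17 of 67 members were higher in treated leaves. Calls numbered 2 without NF day 9 replicate 1, higher calls 2 without NF day 9 replicate 3, and lower calls 5 without MS day 9 replicate 2.

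rpoC2 read 4.94, 4.55 and 5.02 in MS leaves and 3.68, 4.17 and 3.52 in treated leaves. The groups did not overlap, and the difference was -1.04 ± 0.18 (adjusted p = 0.00383), a 2.06-fold lower level. The call held when each array was left out in turn.

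rpoA read 9.81, 9.65 and 10.20 in MS leaves and 9.18, 9.46 and 9.10 in treated leaves, at -0.64 ± 0.14 (adjusted p = 0.0145). This call was lost without NF day 9 replicate 1 or 3 (at most 0.0568) and in a fit of only the groups compared (0.0749). rpoC1 gave -0.66 ± 0.21 (adjusted p = 0.0843), with 1 treated array at 4.02 above 1 MS array at 3.95. rpoB, at 2.16 to 2.42 in both groups and under the array median of 2.81, gave -0.11 ± 0.08.

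Of the ribosomal protein genes, which encode parts of the plastid's own ribosome, 1 of 17 was called lower at day 9. rpl14 gave -0.72 ± 0.54, rpl22 -0.68 ± 0.25, rps3 -0.45 ± 0.22 and rpl16 -0.40 ± 0.48, none called. These 4 were picked out after their values were seen. Over all 17 the median was -0.45 and 1 of 17 was positive, rps15, a row at 1.86 to 2.18 in both groups.

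The photosynthesis genes of the plastid gave no lower call at day 9. psbK read 8.80, 8.78 and 8.87 in MS leaves and 9.58, 9.70 and 9.29 in treated leaves, at 0.71 ± 0.16, a 1.63-fold higher level. The groups did not overlap, but the call ended without NF day 9 replicate 1 or 2 or MS day 9 replicate 2 (at most 0.0824), and with all 30 arrays in 1 fit (0.146). psbC and rbcL gave 0.71 ± 0.27 and 0.69 ± 0.32 (adjusted p = 0.150 and 0.248). psbA gave -0.11 ± 0.20, psaB 0.16 ± 0.35, atpB -0.18 ± 0.26 and petB 0.13 ± 0.26.

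The median difference at day 9 was -0.05 for photosystem II, -0.02 for photosystem I, 0.10 for cytochrome b6f, -0.14 for ATP synthase and -0.21 for NDH, beside -0.65 for RNA polymerase. Plastid rows were higher on NF day 9 replicate 2 and MS day 9 replicate 3 than on the other arrays of their groups, by a median of 0.62 and 0.56, and the part of this in the differences was not tested. Among nuclear genes of the same complexes, 6 of 10 of photosystem II, 9 of 12 of photosystem I and 2 of 13 of NDH were higher at day 9. Of all rows 3.60% were higher, and the nuclear genes of cytochrome b6f and ATP synthase are not given here. PSBQ-2 (AT4G05180) stood at 1.11 ± 0.17 and PSBO2 (AT3G50820) at 0.81 ± 0.10. Of the imported ribosomal proteins 0 of 29 were called by limma, and of the plastid transcription genes 1 of 20 was higher. At an unadjusted p under 0.05, 3 of the imported ribosomal proteins were higher and 3 lower, with no share of all rows given at that threshold.

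**Figure D4:**
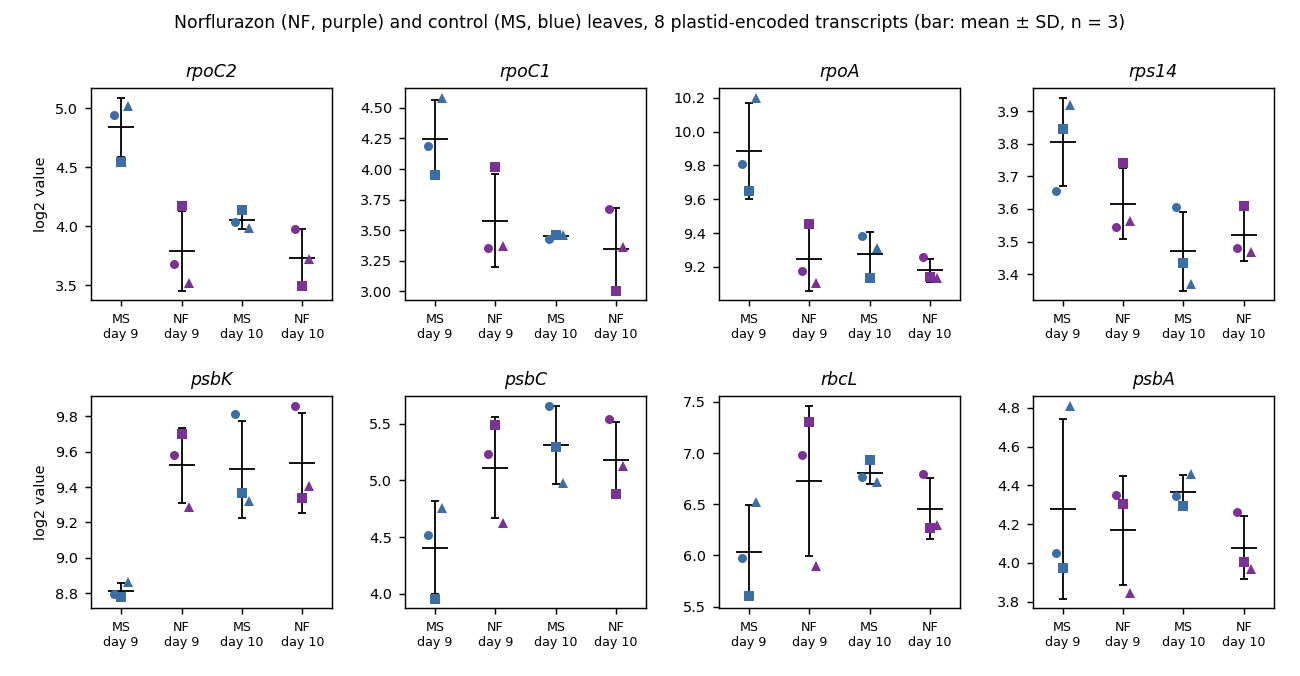
Log2 value on each array (points) for 8 plastid-encoded transcripts in MS (blue) and norflurazon-treated (purple) leaves at days 9 and 10, with the mean ± SD of 3 arrays as bars. For rpoC2 and rpoA the MS day 9 arrays lie above all 9 others, and for psbK they lie below them. Vertical scales differ between panels.

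At day 10, 48 h after treatment, limma called no plastid transcript, while 0.771% of all rows were called. At an unadjusted p under 0.05, 0 members were higher and 3 lower, and the share of all rows at this threshold is not given here. The 3 were ndhA at -0.64 ± 0.20, ndhD at -0.34 ± 0.13 and psbD at -0.32 ± 0.09 (adjusted p = 0.154, 0.262 and 0.137). The median was -0.12, with 14 of 67 members higher and all 10 NDH genes lower in treated leaves (-0.64 to -0.06). None of these 10 was called, and ndhE, ndhF and ndhH were under the array median. Neighbours in an operon are not independent. Of the nuclear NDH genes 3 of 13 were lower, among them PnsL2 at -0.90 ± 0.18 and NdhN (AT5G58260) at -0.49 ± 0.10.

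The polymerase genes and psbK, called at day 9, gave no call at day 10. rpoC2 read 4.03, 4.13 and 3.98 in MS leaves and 3.98, 3.49 and 3.72 in treated leaves, at -0.32 ± 0.18. rpoA and psbK gave -0.10 ± 0.14 and 0.04 ± 0.16. The test of the difference between the days called no member (1.95% of all rows, 1.26% positive and 0.688% negative). At an unadjusted p under 0.05, 4 members were positive and 4 negative, with no share of all rows given at that threshold. The test gave 0.72 ± 0.25 for rpoC2, 0.54 ± 0.19 for rpoA, -0.67 ± 0.23 for psbK and -1.04 ± 0.45 for rbcL (adjusted p from 0.188 to 0.322).

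In the MS leaves themselves, 2 plastid transcripts rose and 5 fell between days 9 and 10, or 10.4% of members beside 11.5% of all rows (5.18% higher, 6.31% lower). The falls included rpoC2 (-0.79 ± 0.18), rpoC1 (-0.79 ± 0.21), rpoA (-0.61 ± 0.14) and rps14 (-0.34 ± 0.09), and the rises were of psbK (0.69 ± 0.16) and psbC (0.90 ± 0.27). Adjusted p ran from 0.0118 for rpoC2 to 0.0472 for psbC. Only the call of rpoC2 among these 7 held with any 1 array left out, and it was lost with all 30 arrays in 1 fit (adjusted p = 0.0651). Calls numbered 2 without MS day 10 replicate 2 and 4 without MS day 9 replicate 1.

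This comparison and that of norflurazon at day 9 share the 3 MS day 9 arrays, so the likeness of the lists is no independent result. Those 3 arrays lay above all 9 other arrays of the experiment for 3 members, rpoC2 and rpoA among them, which are 4.48% of members beside 4.82% of all rows, and below them for psbK, 1.49% of members beside 4.79% of all rows. In the 4 groups, MS day 9, NF day 9, MS day 10 and NF day 10, the means of rpoC2 were 4.84, 3.79, 4.05 and 3.73, and those of psbK 8.81, 9.52, 9.50 and 9.54.

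The time course, on other arrays, gave other values between days 9 and 10. rpoC2 had means of 6.59 and 7.18, with overlapping arrays, a difference of 0.59 that was not called. A test of the difference between these changes was chosen after the data were seen, and it uses the MS day 9 arrays again. The change in MS leaves minus that in the time course was -1.38 for rpoC2 (adjusted p = 0.0217 in a limma fit of all 30 arrays). It was the only member so called (1.49%, beside 6.81% of all rows), and the call ended without any of 5 arrays (adjusted p from 0.0511 to 0.0671).

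Levels of plastid rows also differed between the experiments in untreated leaves of the same age, more unevenly than those of other rows. The array medians differed between the experiments, which appear to have been normalized apart, so the level of a single row set across them is a description. At day 9 the MS level minus the time course level had an SD of 1.45 over the members, beside an SD of 0.43 for mitochondrial and 0.75 for nuclear rows. It was below -2 in 9 of 67 members (13.4%) and in 0.627% of nuclear rows. At day 10 it was below -2 in 13 members (19.4%), beside 0.445% of nuclear rows.

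rps15 stood at 6.66 in the time course and 1.95 in MS leaves, a difference of -4.70. ycf1, rpl20 and ndhF differed by -3.81, -3.50 and -2.93. In the other direction ndhI went from 8.83 to 10.76. Under the array median in all 4 groups of the norflurazon experiment were 11 members, atpF, rpoB, psaA, accD, cemA, petG, petD, ndhF, ndhE, ndhH and rps15, and 0 in all groups of the time course. A change in these 11 could have gone unmeasured in the norflurazon experiment.

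**Figure D5:**
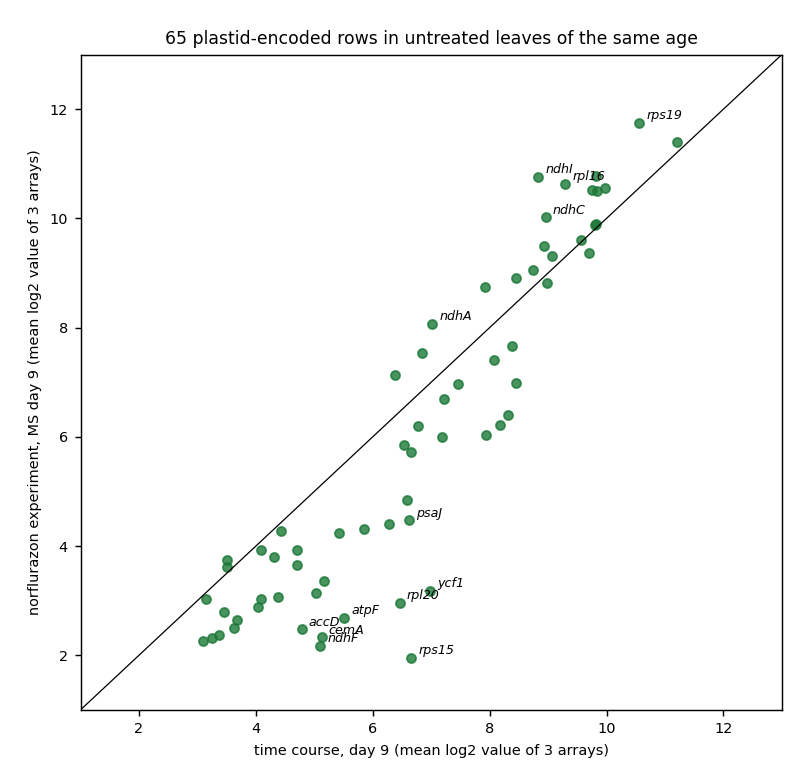
Mean log2 level of 65 plastid-encoded rows in untreated leaves at day 9, in the time course (x axis) and as MS leaves of the norflurazon experiment (y axis), 3 arrays each. The line marks equal levels, and members more than 2 below or more than 1 above it are named. rps15 lies far below the line, at 6.66 and 1.95.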

How the data were processed

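Total RNA of leaf 3 was measured on 30 AGRONOMICS1 arrays. The authors deposited log2 values made with RMA on TAIR9, per the submitters' processing notes; the sources used here give no versions, probe definitions or filters. There were 0 columns of other samples. Arrays give no counts, and their number limits the precision.

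The table names plastid rows by locus only. Gene names and functions came from a list written by hand from the standard locus nomenclature and checked against RefSeq's plastid genes (TAIR10.1): all 67 names occur there, and the 65 that occur once run in the same order as the locus numbers. No coordinates or sequences are given, because the assembly differs and no sequence table was at hand.

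Each experiment was fitted alone with limma 3.58.1 in R 4.3.3 (1 coefficient per group, contrasts, eBayes), with Benjamini-Hochberg adjustment over all 30237 rows and no filter on dim rows. Alternatives were quantile normalization again, centring on nuclear rows, other sets of arrays in the fit, a trended robust prior, dim rows left out, a replicate block, and each array left out. The fit was tested on simulated data in which each row was drawn independently. That test does not cover plastid rows that move together on 1 array. Members, lists, the operons described and the rule for named genes were chosen with earlier results of these data known. Named were 27 genes given whatever their values, called members with the largest changes in each function (up to 2 each way), the extremes of mean level, and up to 2 called genes of each nuclear list; other members named were chosen after their values were seen. Same-numbered arrays of different groups shared little deviation over all rows. The correlation of deviations from group means ran from -0.25 to 0.17 over 45 pairs of time-course arrays (2 over 0.1). It ran from -0.06 to 0.09 over 18 pairs of the norflurazon experiment (0 over 0.1). The arrays were fitted as unpaired, and such a check cannot exclude a pairing or a shared batch. Some members are counted in the totals but not reported here singly.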

Additional observations from a re-analysis of the deposited data

Results flagged for a closer look

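The RNA polymerase gene rpoC2 was the only plastid transcript whose change from day 9 to day 10 differed between the 2 sets of untreated leaves by a test of the difference itself. It changed by -0.79 in MS leaves and gave 0.59 in the time course, so that the change in MS leaves minus that in the time course was -1.38 (adjusted p = 0.0217, limma, 30 arrays). The test was chosen after the data were seen, and it shares the MS day 9 arrays with the norflurazon and MS calls of rpoC2. With 1 array left out, the call held in 7 of 12 fits. The experiments appear to have been normalized apart, and the part of this in the difference was not tested.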

How the results depend on the processing

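No called gene reversed its direction under the alternatives run. For the change between days 8 and 13, 12 members called in neither fit changed sign without day 8 replicate 3. Among them were ndhD (-1.06 to 0.22), ycf4 (-0.80 to 0.47), petD (-1.05 to 0.09) and petG (-0.34 to 0.20). Others were rpoB (-0.61 to 0.02), rpoC1 (-0.07 to 0.08) and psbL (0.15 to -0.05). The 3 lower calls between days 8 and 13 became 1 after quantile normalization again and 5 with all 30 arrays in 1 fit. The 0 calls of the 1-day intervals became, from day 8 to 9, 2 after quantile normalization again, 1 with all 30 arrays and 1 with dim rows left out; from day 9 to 10, 1 after quantile normalization again and 1 with only the compared groups; and from day 11 to 12, 1 with each of quantile normalization again, all 30 arrays, an intensity trend with a robust prior, and dim rows left out. For norflurazon at day 9 the 1 higher call became 0 with all 30 arrays. For MS leaves between days 9 and 10 the 2 higher calls became 1 with only the compared groups and 4 with dim rows left out, and the 5 lower calls became 3 with all 30 arrays and 3 with the replicate block. The cause was not tested. The replicate block changed no other count by more than 1.5 times; of single genes it ended the calls of accD (days 8 to 13, adjusted p = 0.0669) and of rpoC1 and rps14 (MS leaves, 0.0534 and 0.0568).

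With 1 array left out, calls between days 8 and 13 numbered 14 to 25 (11 to 24 higher, 1 to 10 lower), those of the F test 13 to 23, and those of the 1-day intervals 0 to 2 (day 8 to 9), 0 to 1 (day 9 to 10), 0 to 0 (day 10 to 11), 0 to 1 (day 11 to 12) and 0 to 1 (day 12 to 13). For norflurazon they numbered 2 to 5 at day 9 (0 to 2 higher, 2 to 5 lower) and 0 at day 10 and for the difference between days, and for MS leaves 2 to 5 (0 to 3 higher, 1 to 5 lower). Quantile normalization again moved the split of all called rows by over 10 percentage points in 4 comparisons, from 139 higher and 247 lower to 299 and 261 (days 8 to 9), from 718 and 1514 to 1106 and 952 (days 9 to 10), from 120 and 113 to 113 and 210 (norflurazon, day 10) and from 381 and 208 to 358 and 335 (difference between days). Signal near the array median limits what the dim rows can show.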
